A study of Homo sapiens with 24 samples.

Results

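Long intergenic noncoding RNAs that carry a LINC symbol were followed in 24 one-colour Agilent microarrays of 2 hepatocellular carcinoma cell lines, PLC/PRF/5 and SNU-449. The LINC RNAs described here are 269 genes, read by 336 probes. The probes were selected on their signal, by the scanner software's call of well above background, which had to hold for all 3 arrays of at least 1 of the 8 groups. They also had to carry a RefSeq accession whose current symbol starts with LINC and to lie in the inner block of array rows and columns. They were drawn from 1245 LINC probes (898 genes) in that block and 1791 LINC probes (1130 genes) on the whole array of 58201 probes. Each line had 4 groups of 3 independent cultures, all serum-starved overnight and collected at 16 h: control cultures with no addition, cultures given TGFβ1 (1 ng/mL), cultures given galunisertib (10 µM), and cultures given both. Galunisertib, also known as LY2157299, is an inhibitor of the TGFβ type I receptor kinase. Each line is a single cell population grown in culture, so in bulk RNA fewer cells making a transcript and less transcript per cell cannot be told apart.

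LINC symbols are given to long intergenic noncoding RNA genes, most of which have no assigned function. In the RefSeq table, however, 26 of the 269 overlapped their nearest protein-coding gene, and LINC02210-CRHR1 is itself listed as protein-coding. Some act on the chromatin or transcription of neighbouring genes and others bind proteins or microRNAs. TGFβ signals through receptor kinases to SMAD transcription factors, which bind DNA at short CAGAC motifs, and in epithelial cells including hepatocytes it can lead to an epithelial-to-mesenchymal transition. LINC00261 is transcribed beside FOXA2, a pioneer transcription factor of endoderm and liver. LINC-PINT is a p53-responsive RNA, and LINC00473 is a target of cAMP and CREB signalling.

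The sequences immediately around the start sites of 4 LINC genes are shown because their RNAs moved with TGFβ1 or galunisertib and because 3 of them did so with their neighbouring protein-coding gene. They are RefSeq promoter windows of build GRCh38.p14, from 250 bases before to 50 bases after the start site, written 5′ to 3′ on the strand of the gene. Capitals mark the letters CAGAC or their reverse complement GTCTG.
LINC02593, chr1:919643-919942, minus strand: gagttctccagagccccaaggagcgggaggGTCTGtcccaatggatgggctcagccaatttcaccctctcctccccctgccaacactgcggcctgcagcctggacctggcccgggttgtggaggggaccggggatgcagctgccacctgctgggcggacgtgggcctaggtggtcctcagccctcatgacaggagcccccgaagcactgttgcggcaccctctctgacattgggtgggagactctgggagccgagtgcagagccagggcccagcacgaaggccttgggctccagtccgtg
LINC00261, chr20:22578593-22578892, minus strand: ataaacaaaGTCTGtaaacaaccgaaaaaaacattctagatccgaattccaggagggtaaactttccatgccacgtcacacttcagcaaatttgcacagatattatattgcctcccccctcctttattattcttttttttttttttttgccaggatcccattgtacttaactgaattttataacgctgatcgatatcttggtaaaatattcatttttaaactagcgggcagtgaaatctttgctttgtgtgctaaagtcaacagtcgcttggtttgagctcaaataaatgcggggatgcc
LINC01091, chr4:123649741-123650040, plus strand: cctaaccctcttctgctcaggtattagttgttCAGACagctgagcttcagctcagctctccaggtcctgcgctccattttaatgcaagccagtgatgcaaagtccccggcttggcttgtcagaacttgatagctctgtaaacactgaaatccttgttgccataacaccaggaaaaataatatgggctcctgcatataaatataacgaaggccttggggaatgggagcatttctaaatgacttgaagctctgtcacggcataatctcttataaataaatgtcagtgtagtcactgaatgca
LINC-PINT, chr7:130913261-130913560, minus strand: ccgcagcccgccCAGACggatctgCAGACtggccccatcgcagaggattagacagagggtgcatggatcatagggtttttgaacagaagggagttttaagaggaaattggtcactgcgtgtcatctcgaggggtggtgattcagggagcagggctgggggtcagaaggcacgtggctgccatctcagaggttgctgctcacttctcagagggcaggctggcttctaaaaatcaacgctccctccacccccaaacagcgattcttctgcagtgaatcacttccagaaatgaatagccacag
A promoter window was found for 199 of the 269 genes, and for 18 of the 29 genes called in a treatment comparison. CAGAC or GTCTG was present in 12 of these 18 windows (66.7%), in 103 of the 199 windows (51.8%) and in 45.3% of all 35116 windows in the table. All 4 windows shown carry a match. The windows without it were those of LINC00173, LINC00513, LINC01099, LINC01422, LINC02104 and LINC02551. Among these, LINC02551 had the largest rise and LINC00173 the largest fall with TGFβ1 in SNU-449. The AP-1 letters TGACTCA or their reverse complement TGAGTCA were present in 0 of the 18 windows, in 16 of the 199 (8.04%) and in 4.95% of all windows. A match is a description of the letters only. The window of LINC-PINT shares 253 of its 300 bases with that of LINC00513, which lies on the opposite strand, and the RNAs of both genes are described below.

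Levels are log2 values of the processed signal over the 75th percentile of the array, with a floor at -4.13 (5.70% of that percentile), and differences are log2 differences of group means ± standard error. A probe was called when it differed by more than 2-fold at an unadjusted P under 0.001 in limma, and the Benjamini-Hochberg adjusted p is over all probes tested. The 75th percentile was 145 to 262 intensity units, and 43.9% to 51.6% of probes were well above background per array. The dimmest array was replicate 1 of the PLC/PRF/5 control. The line labels were checked against markers. Of 10 hepatocyte genes, 9 were higher in PLC/PRF/5 controls and 1, FGB, was higher in SNU-449, with ALB, APOB and HNF4A undetected in all SNU-449 controls. The 4 epithelial genes were higher in PLC/PRF/5 and the 5 mesenchymal genes in SNU-449. Of 10 TGFβ-responsive genes, TGFβ1 raised 4 and galunisertib added to TGFβ1 lowered 8 in SNU-449, while in PLC/PRF/5 the counts were 2 raised by TGFβ1, and 3 lowered and 1 raised by the addition of galunisertib, of 8 tested. A group kept 1 array position throughout the 3 slides, and arrays with and without TGFβ1 lay in different slide rows, so position and treatment cannot be told apart.

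LINC RNAs were detected less often than protein-coding genes in these cells. Of the 1245 LINC probes, 27.0% met the detection rule, against 50.4% of all 40296 probes in the same array positions and 73.6% of protein-coding probes there. These shares come from the rule itself and are given as a description. The 36 members detected in exactly 1 group had mean levels of -4.11 to -2.80 (median -3.58) in that group, and the 32 LINC probes just outside the rule, above background on 2 of 3 arrays of their best group, had levels of -4.10 to -3.39 (median -3.86). The number of members above background on all 3 arrays ranged from 205 in SNU-449 with galunisertib to 254 in PLC/PRF/5 with TGFβ1. Of the 336 members, 135 were detected in all 8 groups. Detection in both lines held for 57.4% of members, in PLC/PRF/5 alone for 25.0% and in SNU-449 alone for 17.6%, against 80.3%, 12% and 7.71% of all 29307 probes past the same rule. There were 49 genes with several member probes, up to 4 each.

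With TGFβ1 in SNU-449, LINC probes were called in both directions. Of 252 members tested, 15 probes of 14 genes were called (2.13% of all 25781 probes tested were called), 4 higher (1.27%) and 11 lower (0.861%). Percentages beside counts of calls are the shares of all probes tested. The 3 largest rises were LINC02551 (2.08 ± 0.16), LINC01711 (1.99 ± 0.27) and LINC02593 (1.57 ± 0.28). The 6 largest falls were the 2 probes of LINC00173 (-1.92 ± 0.32 and -1.91 ± 0.32), LINC01291 (-1.62 ± 0.26), LINC00261 (-1.5 ± 0.19), LINC02532 (-1.21 ± 0.23) and LINC00513 (-1.20 ± 0.17). The median difference over the members tested was -0.08, against 0.00 over all probes. With array median scaling, which moved the median of all probes to 0.11, the split was 5 higher and 6 lower. Over all probes it was 429 higher and 178 lower with that scaling. Without replicate 3 the 6 calls were 4 higher and 2 lower, so the excess of lower calls was not kept. All 15 called probes nevertheless differed in the same direction on each of the 3 slides. The count was 8 without replicate 2 and 2 after normexp background correction (0.794%, against 1.07% of all probes).

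The largest number of LINC probes called in a treatment contrast was found in SNU-449 when galunisertib was added to TGFβ1. Of the 252 members, 24 probes of 21 genes were called (3.6% of all probes), 17 higher (1.72%) and 7 lower (1.88%) with galunisertib. The largest rises were the 2 probes of LINC00173 (both 2.54 ± 0.32), LINC00261 (2.04 ± 0.19), LINC02532 (1.96 ± 0.23), LINC01091 (1.96 ± 0.20) and LINC01291 (1.76 ± 0.26). The falls were LINC02551 (-2.84 ± 0.16), LINC01711 (-2.38 ± 0.27), LINC02593 (-1.76 ± 0.28), LINC01088 (-1.47 ± 0.26), LINC01910 (-1.33 ± 0.13), LINC00673 (-1.21 ± 0.20) and LINC01422 (-1.03 ± 0.19). LINC01099, LINC01119, LINC00632, LINC01474 and LINC00629 were also higher by 1.08 to 1.76 and are named here after their values were seen. The median difference was 0.12 over the members and 0.01 over all probes tested. With array median scaling, which moved the median of all probes to -0.17, the split was 11 higher and 8 lower, and over all probes 319 higher and 719 lower. Without replicate 3 the count was 15, and after normexp it was 9 (3.57%, against 2.02% of all probes). This contrast and that of TGFβ1 against control share the 3 TGFβ1 arrays, so opposite signs in the 2 contrasts are not independent of each other.

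The RNAs raised by TGFβ1 in SNU-449 were lower in every other group of that line. LINC02551 levels were -3.54, -3.37 and -2.88 in the control cultures, and -1.26, -1.14 and -1.16 with TGFβ1. With galunisertib alone and with both agents LINC02551 was above background on none of the 6 arrays, so the TGFβ1 level was at least 6.91-fold above that with both agents. Each TGFβ1 array lay above every other array of the line. LINC01711 read -2.97, -3.32 and -3.04 in control, -1.11, -0.95 and -1.29 with TGFβ1, and -3.92, -2.86 and -3.71 with both agents, of which 1 array was above background. The TGFβ1 arrays again stood apart from the rest. LINC01910 was above background on the 3 TGFβ1 arrays (-3.15, -2.62 and -2.64) and on 0 of the other 21 arrays of the 2 lines, a rise of at least 2.39-fold over the SNU-449 control. Having met the detection rule through that group only, it had to differ. Its fitted difference was 1.33 ± 0.13 (adjusted p = 0.000181).

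LINC00261 was the SNU-449 member called in every treatment contrast of that line. Its levels were -0.74, -1.11 and -1.14 in control, -2.16, -2.73 and -2.59 with TGFβ1, 0.36, 0.08 and 0.20 with galunisertib, and -0.23, -0.74 and -0.39 with both agents. The TGFβ1 arrays were below, and the galunisertib arrays above, all others. It rose 2.31-fold with galunisertib alone (1.21 ± 0.19, adjusted p = 0.0064) and 4.11-fold when galunisertib was added to TGFβ1 (adjusted p = 6.81e-05). The other LINC00261 probe was above background in SNU-449 on 2 galunisertib arrays only and was not tested there. The probe called in SNU-449 read higher in PLC/PRF/5 controls. In PLC/PRF/5 it differed by -0.26 ± 0.08 with TGFβ1 and by -0.22 ± 0.08 with galunisertib, neither called.

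LINC02532, LINC01091 and LINC00173 had the same order of levels in SNU-449, lowest with TGFβ1. LINC02532 read -2.54, -1.83 and -1.95 in control, -3.63, -3.14 and -3.16 with TGFβ1 and -1.25, -1.39 and -1.41 with both agents. No array overlapped between these 3 groups. LINC01091 is represented by 2 probes, of which 1 read -2.80, -2.58 and -2.81 in control, -3.35, -3.69 and -3.97 with TGFβ1 and -2.18, -1.99 and -2.15 with both agents. Its fall with TGFβ1 was -0.94 ± 0.15 at this probe, just short of 2-fold, and -1.06 ± 0.20 at the other, where the call was lost with the replicate block (adjusted p = 0.0267 in limma, with an unadjusted P of 0.00132). LINC00173 read 0.10, 0.28 and 0.12 in control, -1.58, -1.56 and -2.08 with TGFβ1 and 0.76, 0.93 and 0.71 with both agents at 1 of its called probes. The remaining LINC00173 probe was not called, with 0.01 ± 0.19 for TGFβ1 and 0.09 ± 0.19 for galunisertib added to it.

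LINC-PINT and LINC00513, whose promoter windows overlap on opposite strands, were both lower with TGFβ1 in SNU-449. LINC00513 read -0.02, -0.04 and -0.12 in control, -0.87, -1.38 and -1.52 with TGFβ1, and -0.07, 0.23 and 0.01 with both agents. LINC-PINT at its called probe read -1.34, -1.60 and -1.43 in control, -2.48, -2.45 and -2.65 with TGFβ1 and -1.27, -1.53 and -1.32 with both agents. For each RNA the TGFβ1 arrays were the lowest 3 of these 9. The other LINC-PINT probes tested in SNU-449 differed by -0.62 ± 0.31 and -1.17 ± 0.33 with TGFβ1 and were not called. The LINC-PINT probes disagreed in PLC/PRF/5, with differences of 0.53 ± 0.11 and 0.44 ± 0.12 at 2 probes, 0.14 ± 0.14 at another and -0.68 ± 0.13 at the last, all under 2-fold.

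LINC01111 and LINC02104 were also called lower with TGFβ1 in SNU-449. LINC01111 fell from 2.74, 2.75 and 2.81 in the SNU-449 control to 1.57, 1.64 and 1.75 with TGFβ1, a difference of -1.11 ± 0.09 (adjusted p = 5.70e-05), and stood at 2.86, 2.85 and 2.70 with both agents. LINC02104 fell from -0.86, -0.60 and -0.50 to -1.76, -1.70 and -1.52, by -1.0 ± 0.11. The call of LINC02104 was lost without replicate 2 or replicate 3, while that of LINC01111 held under every alternative. In neither did the TGFβ1 arrays overlap with the control arrays. Neither RNA was above background on any PLC/PRF/5 array.

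**Figure D1:**
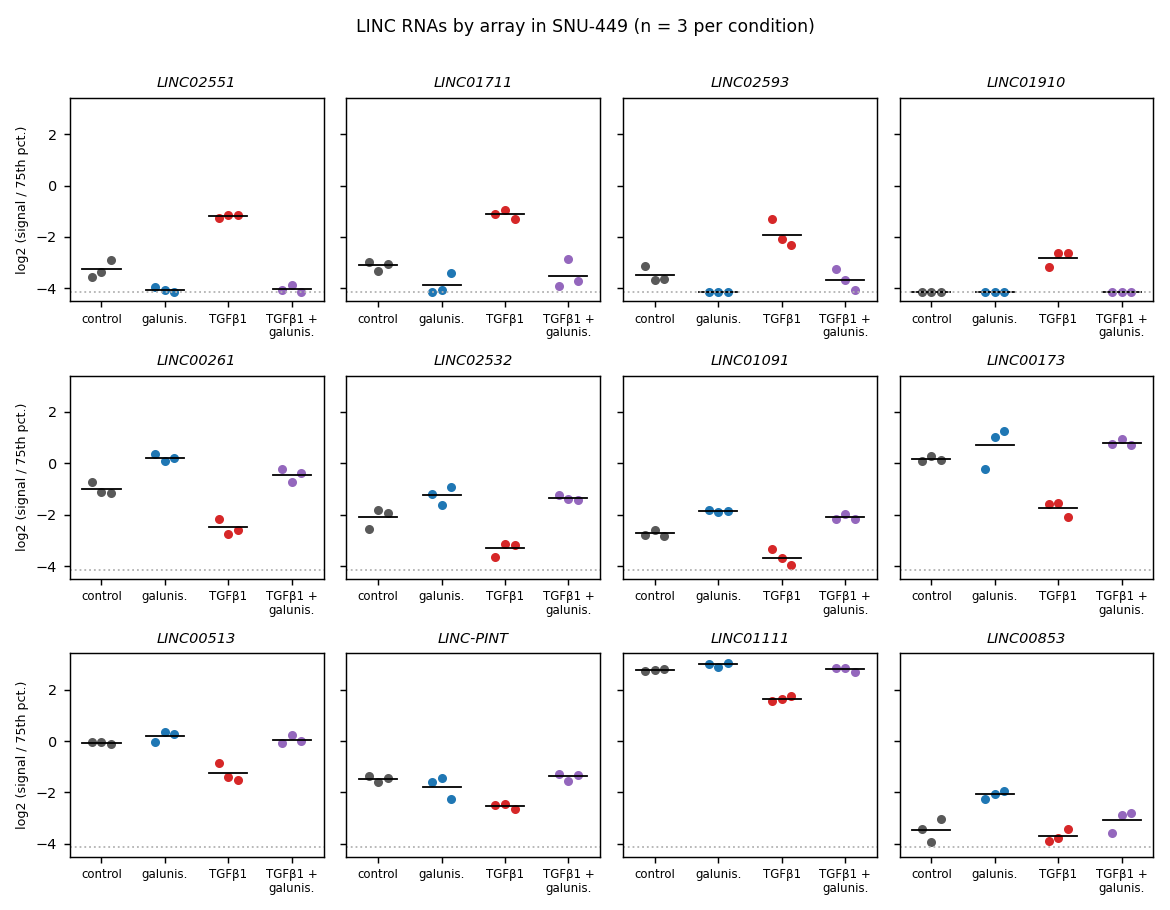
Levels of 12 LINC RNAs in SNU-449, 1 panel each, as log2 of the processed signal over the 75th percentile of the array (y axis) in the 4 conditions (x axis). Points are the 3 arrays of a condition, bars their mean, and the dotted line the floor at -4.13. In the top row the TGFβ1 arrays are the highest, in the lower rows they are the lowest except for LINC00853, whose galunisertib arrays stand above the others.

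With galunisertib alone in SNU-449, the share of LINC probes called was near that of all probes. Of 252 members, 2 were called (0.794%, against 1.14% of all probes), both higher (0.407%, against 0.737% lower): LINC00261, and LINC00853 at 1.39 ± 0.26 (adjusted p = 0.0161). LINC00853 read -3.43, -3.92 and -3.03 in control and -2.24, -2.06 and -1.93 with galunisertib, with no overlap. With TGFβ1 it read -3.90, -3.75 and -3.43, and with both agents -3.59, -2.87 and -2.80, and neither contrast between those groups was called. LINC00853 was no longer called when any 1 of the 3 replicates was left out, nor was LINC00261 without replicate 2 or 3. Neither was called after normexp or by a plain two-sample t-test, which shares no spread between probes and is not the random variance test of the study. The number of members called was 4 without replicate 1, 2 without replicate 2 and 1 without replicate 3.

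Galunisertib with and without TGFβ1 can be set side by side because those contrasts share no arrays. Of the 24 SNU-449 members called when galunisertib was added to TGFβ1, 22 differed in the same direction with galunisertib alone, 1 (LINC01910) was at the floor in both groups, and 1 (LINC-PINT, -0.31 ± 0.19) was on the other side of 0. The unadjusted P in galunisertib against control was under 0.05 for 20 of the 24. Among all 927 probes called with TGFβ1 present, 809 had the same direction (87.3%) and 59.9% a P under 0.05. The median size over the 24 was 1.48 with TGFβ1 and 0.68 without it. In the other line, 6 of 6 had the same direction and 5 of 6 a P under 0.05, against 89.1% and 58.0% of all probes.

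**Figure D2:**
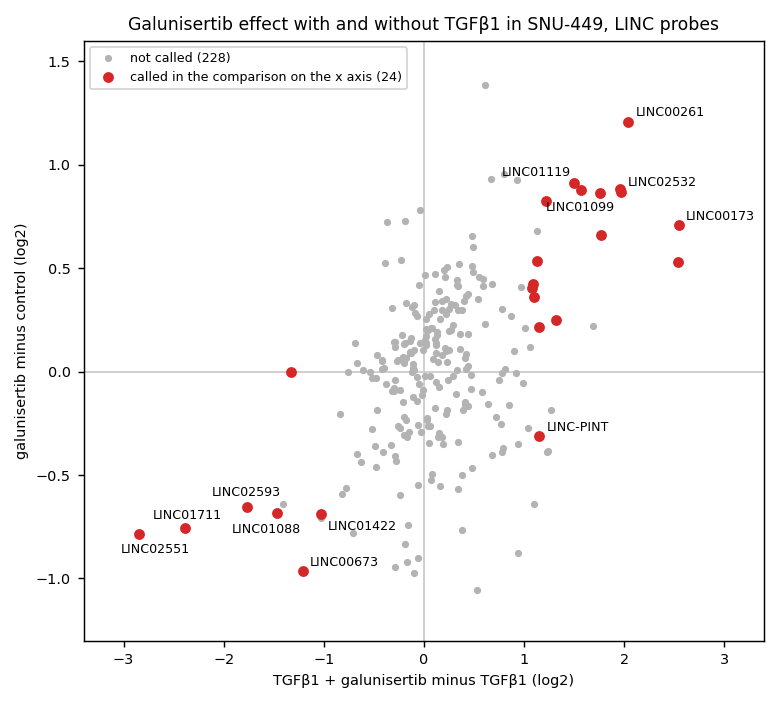
Log2 difference between TGFβ1 with galunisertib and TGFβ1 alone (x axis) and between galunisertib and control (y axis) for 252 LINC probes in SNU-449. Red points are the 24 probes called on the x axis, grey points the other 228. The red points lie in the upper right and lower left, except LINC-PINT below 0 and LINC01910 (unlabelled) at 0 on the y axis.

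With TGFβ1 in PLC/PRF/5, LINC probes were called at the share of all probes. Of 277 members, 3 were called (1.08%, against 1.06% of all 27046 probes), 3 higher (0.769%) and 0 lower (0.292%): LINC00842 (1.21 ± 0.15), LINC02593 (1.16 ± 0.13) and LINC02035 (1.15 ± 0.16). Galunisertib added to TGFβ1 changed 6 members (2.82%), 3 higher (1.06%) and 3 lower (1.76%). The same 3 RNAs were lower, LINC02593 by -1.96 ± 0.13, LINC00842 by -1.33 ± 0.15 and LINC02035 by -1.11 ± 0.16, in a contrast that shares the TGFβ1 arrays. LINC00239 (2.00 ± 0.12), LINC00473 (1.35 ± 0.09) and LINC01610 (1.01 ± 0.19) were higher. Galunisertib alone changed 2 members (0.266%, of which 0.111% higher and 0.155% lower), LINC00239 higher by 1.00 ± 0.12 and LINC01447 lower by -1.01 ± 0.19, the latter above background on 2 of 3 control arrays and on none with galunisertib. The median of the members was -0.14 for galunisertib added to TGFβ1 and 0.02 over all probes. With array median scaling, which moved the median of all probes to 0.18, that contrast had 5 members called higher and 2 lower. All probes had 560 higher and 290 lower there. With the percentile taken over always-detected probes the members split 2 higher and 7 lower, and all probes 165 higher and 796 lower. Of the galunisertib calls, 0 were left without replicate 1 and 1, LINC01447, without the dim control replicate 1 alone.

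LINC02593 was called in both lines. Its levels in PLC/PRF/5 were -0.71, -0.76 and -0.69 in control, 0.45, 0.34 and 0.52 with TGFβ1, -1.45, -1.45 and -1.46 with galunisertib, and -1.87, -1.43 and -1.26 with both agents. In SNU-449 they were -3.12, -3.67 and -3.64 in control, -1.32, -2.08 and -2.33 with TGFβ1, and -3.24, -3.69 and -4.08 with both agents, and with galunisertib alone it was above background on no array. In each line the TGFβ1 arrays stood above all others. The TGFβ1 effect was not shown to differ between the lines (0.41 ± 0.32, SNU-449 minus PLC/PRF/5, adjusted p = 0.54). The second LINC02593 probe, tested in PLC/PRF/5 only, differed by 0.65 ± 0.27 with TGFβ1 and was not called.

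LINC00239 and LINC00473 moved the other way in PLC/PRF/5. LINC00239 read -0.33, -0.15 and -0.08 in control, 0.83, 0.78 and 0.83 with galunisertib, -1.21, -0.74 and -1.07 with TGFβ1 and 1.10, 0.87 and 1.01 with both agents. The TGFβ1 arrays lay below the control arrays, and those with galunisertib, with or without TGFβ1, lay above them. LINC00473 read 1.72, 1.78 and 1.96 in control, 0.94, 0.92 and 1.02 with TGFβ1, and 2.24, 2.29 and 2.40 with both agents. Its fall with TGFβ1, -0.85 ± 0.09, was under 2-fold. LINC02035 read -0.46, -0.37 and -0.49 in control, 0.85, 0.59 and 0.69 with TGFβ1 and -0.30, -0.45 and -0.44 with both agents, with the TGFβ1 arrays above the rest. LINC00842 was above background on all 3 TGFβ1 arrays (-2.71, -3.13 and -2.55), on 1 control array and on none with both agents, a difference of at least 2.51-fold between the last and TGFβ1. Of these 3 groups only that with TGFβ1 met the detection rule for the test in this line, so LINC00842 was likely to differ.

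**Figure D3:**
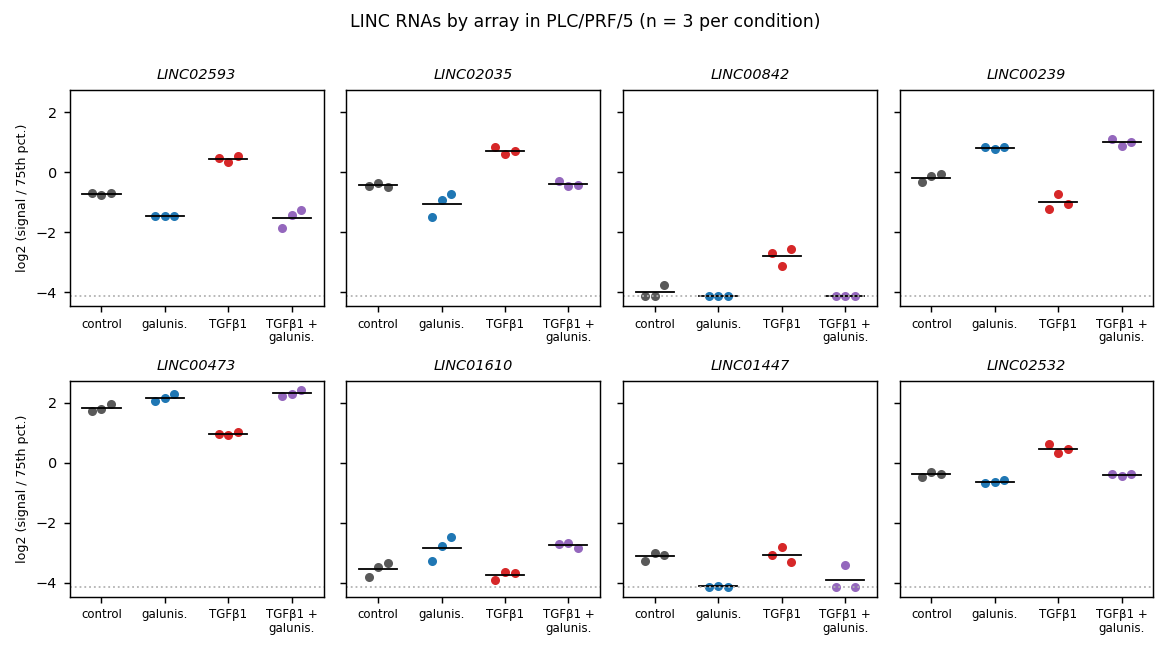
Levels of 8 LINC RNAs in PLC/PRF/5, 1 panel each, as log2 of the processed signal over the 75th percentile of the array (y axis) in the 4 conditions (x axis). Points are the 3 arrays of a condition, bars their mean, and the dotted line the floor at -4.13. The TGFβ1 arrays are highest for LINC02593, LINC02035, LINC00842 and LINC02532 and lowest for LINC00239 and LINC00473.

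The effect of TGFβ1 differed between the lines for some of these RNAs by a test of the difference itself. Of 336 members, 13 were called (2.03% of all 29307 probes, 0.85% higher and 1.18% lower in SNU-449), and 6 of them were above background on all 3 arrays of at least 1 group of each line, all 6 with the lower difference in SNU-449. LINC02532 was lower with TGFβ1 in SNU-449 and higher by 0.86 ± 0.09 in PLC/PRF/5, where it read -0.47, -0.32 and -0.37 in control and 0.61, 0.34 and 0.47 with TGFβ1 (difference between lines -2.07 ± 0.25, adjusted p = 1.53e-05). LINC-PINT (-1.60 ± 0.23) likewise had effects of opposite sign at its called probe. For LINC00842 (-1.63 ± 0.21) and LINC02035 (-1.14 ± 0.22) the rise was in PLC/PRF/5, and LINC02035 differed by 0.01 ± 0.14 in SNU-449. The PLC/PRF/5 control of LINC00842 lay near the floor (mean -4.01, 1 array above background), so its line difference carries the limit given above. For LINC00261 (-1.24 ± 0.20) and LINC00999 (-1.13 ± 0.29) the fall was in SNU-449. Another LINC00999 probe was called in no treatment contrast and no line difference. The other 7 were LINC00173, LINC01291, LINC01111, LINC02104, LINC01910, LINC01711 and LINC02551, whose called probe was above background on no PLC/PRF/5 array, so the effect there could not be measured at that probe. The other LINC00173 probes differed in PLC/PRF/5 by -0.24 ± 0.23 and 0.27 ± 0.44.

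The effect of galunisertib alone differed between the lines for 4 members (1.47% of all probes, 0.706% higher and 0.761% lower in SNU-449), all above background in both. LINC00261 (1.43 ± 0.20), LINC00853 (1.35 ± 0.28) and LINC02532 (1.11 ± 0.25) had the higher difference in SNU-449. LINC00673 had the lower one, by -1.13 ± 0.16 (adjusted p = 0.000315). At this probe LINC00673 read 2.88, 2.86 and 2.86 in the SNU-449 control and 2.52, 2.31 and 2.40 with galunisertib, and 0.04, 0.01 and -0.03 in the PLC/PRF/5 control and 0.60, 0.65 and 0.79 with galunisertib. The groups did not overlap in either line and the directions were opposite. The other LINC00673 probe with a call, in galunisertib added to TGFβ1 in SNU-449, differed between the lines by -1.06 ± 0.32, which did not pass.

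Some LINC RNAs moved together with the protein-coding gene nearest to them in the RefSeq table of GRCh38.p14. LINC00261 and FOXA2 were both higher with galunisertib in SNU-449, FOXA2 by 1.02 ± 0.12 alone and by 1.27 ± 0.12 when it was added to TGFβ1, while its difference with TGFβ1 (-0.80 ± 0.12) was under 2-fold. LINC01091 lies beside SPRY1, an antagonist of receptor tyrosine kinase signalling, which differed by -1.28 ± 0.17 with TGFβ1 and 1.82 ± 0.17 with galunisertib added. LINC02593 lies beside SAMD11, which was called with it in both lines: 1.23 ± 0.14 and -1.61 ± 0.14 in the 2 SNU-449 contrasts, and 1.01 ± 0.12 and -1.82 ± 0.12 in those of PLC/PRF/5. LINC01910 lies beside SOCS6, a member of the suppressor of cytokine signalling family, at 1.13 ± 0.13 and -1.02 ± 0.13.

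For other LINC RNAs the neighbour did not pass, apart from ANXA8L1 beside LINC00842 in PLC/PRF/5. DAB2, an endocytic adaptor beside LINC02104, differed by -0.93 ± 0.24 and 1.06 ± 0.24 (adjusted p = 0.0436 and 0.0164) and was not called. SNX19 beside LINC02551 differed by 0.13 ± 0.09 and -0.10 ± 0.09, STX16 beside LINC01711 by 0.10 ± 0.11 and 0.05 ± 0.11, and POLE4 beside LINC01291 by 0.11 ± 0.10 and -0.10 ± 0.10. MKLN1 beside LINC-PINT differed by 0.06 ± 0.14 and 0.14 ± 0.14. When galunisertib was added to TGFβ1 in SNU-449, ZFHX4 beside LINC01111 (-0.52 ± 0.18) and MCFD2 beside LINC01119 (-0.48 ± 0.11) lay on the opposite side of 0 from the LINC RNA and were not called. SLC39A11 beside LINC00673 did so too, at 0.31 ± 0.13. For PLC/PRF/5, ANXA8L1 beside LINC00842 was called when galunisertib was added to TGFβ1 (-1.77 ± 0.29) and differed by 1.24 ± 0.29 with TGFβ1 without a call. PPP2R5C beside LINC00239 differed by 0.57 ± 0.09 with galunisertib added, under 2-fold. These are neighbours by position, and no test of shared control was made.

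**Figure D4:**
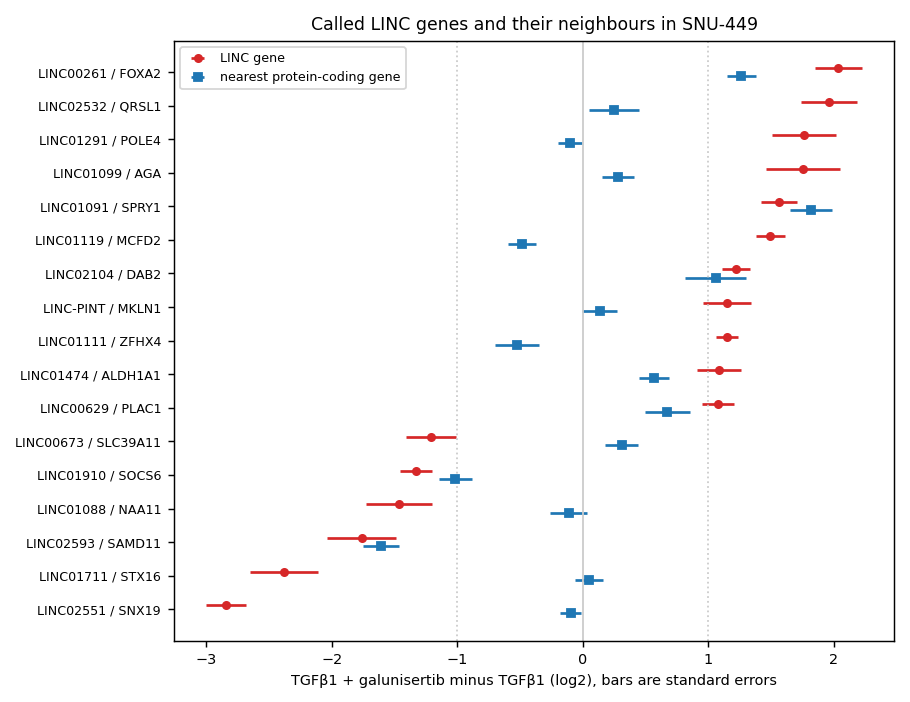
Log2 difference between TGFβ1 with galunisertib and TGFβ1 alone in SNU-449 (x axis) for the called LINC genes (red circles) and their nearest protein-coding gene where it was tested (blue squares), 1 pair per row, with standard errors as bars and dotted lines at 2-fold. FOXA2, SPRY1, SAMD11 and SOCS6 lie past 2-fold on the side of their LINC gene with a call. The other neighbours were not called, with DAB2 at 1.06 past 2-fold. ZFHX4, MCFD2, SLC39A11, STX16 and POLE4 lie on the opposite side of 0 from their LINC gene.

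The control cultures of the lines differed at 126 of 336 LINC probes (37.5%), from 98 genes, against 33.2% of all probes. The level was higher in PLC/PRF/5 for 77 (17.3%) and in SNU-449 for 49 (16%). With array median scaling, which moved the median of all probes from 0.13 to -0.20, 117 members were called (34.8%, against 34.9% of all probes). Of these, 56 were higher in PLC/PRF/5 and 61 in SNU-449. All 29307 probes split there into 3625 called higher in PLC/PRF/5 and 6609 in SNU-449. The excess of members in number on the PLC/PRF/5 side thus depends on the scaling, and the calls over all probes shifted the same way. Among 163 members measured on all 6 control arrays, 53 were called (32.5%), 39 higher in PLC/PRF/5 (23.9%) and 14 in SNU-449 (8.59%). Of 21305 probes measured on all 6, 27.4% were called, 13.4% higher in PLC/PRF/5 and 14.0% in SNU-449. No split under array median scaling is given for this subset. A probe enters the rest of the list by being detected in at least 1 group, so those members were likely to differ.

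Among probes measured in both lines, that of LINC00626 had the largest difference, 4.45 ± 0.20, with levels of 3.59, 2.86 and 2.92 in PLC/PRF/5 and -1.69, -1.08 and -1.21 in SNU-449. LINC00853 (3.62 ± 0.20), LINC02381 (3.28 ± 0.29), LINC00261 (3.22 ± 0.14), LINC00963 (2.90 ± 0.11), LINC02593 (2.76 ± 0.22), LINC01347 (2.37 ± 0.24) and LINC-PINT (2.34 ± 0.25) followed on the PLC/PRF/5 side, each at its most different probe measured in both lines. Of the 4 LINC-PINT probes this was the 1 called, and it was not called by the plain two-sample t-test, while the others differed by 0.09 to 0.24. Those higher in SNU-449 were LINC02315 (-2.98 ± 0.12), the 2 probes of LINC02298 (-2.86 ± 0.12 and -2.76 ± 0.13), 2 of the 4 probes of LINC00673 (-2.86 ± 0.12 and -2.40 ± 0.23), LINC01270 (-2.67 ± 0.23), LINC02035 (-2.37 ± 0.15) and LINC01535 (-2.27 ± 0.25). LINC00261 read 2.12, 2.23 and 2.32 in PLC/PRF/5, and LINC02315 read 2.18, 2.22 and 2.32 in SNU-449 against -0.92, -0.64 and -0.67 in PLC/PRF/5. No control arrays overlapped between the lines for any of these probes. The remaining LINC00673 probes differed by -2.37 ± 0.13, called, and by -0.10 ± 0.13, not called, and the LINC01347 probes by 0.78 to 2.37.

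Other LINC probes were above background in the control cultures of 1 line only. LINC00221, with 2.54, 2.56 and 2.47 in PLC/PRF/5, was at least 95.9-fold higher there, and its other probe at least 75.1-fold. LINC01419 was at least 95.5-fold and 32.7-fold higher in PLC/PRF/5 at its 2 probes, LINC00473 at least 58.8-fold and LINC02864 at least 29.0-fold. Another LINC00473 probe differed by only 1.20 ± 0.29. It was above background on 2 PLC/PRF/5 control arrays, and its control arrays overlapped between the lines. Another LINC02864 probe gave at least 11.6-fold. In SNU-449, LINC00632 read 4.28, 3.90 and 4.13 and was at least 259-fold higher, with at least 67.9-fold at the other probe. LINC01111 was at least 102-fold higher in SNU-449. Single probes of LINC00665, LINC00847 and LINC01060 gave at least 47.6-fold, 40.5-fold and 23.4-fold. Their other probes differed far less and were detected in PLC/PRF/5: LINC00665 by -0.84 ± 0.26 (not called), LINC00847 by -2.97 ± 0.23 and by -0.61 ± 0.24 (not called), and LINC01060 by -1.64 ± 0.20 (3.12-fold, called).

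**Figure D5:**
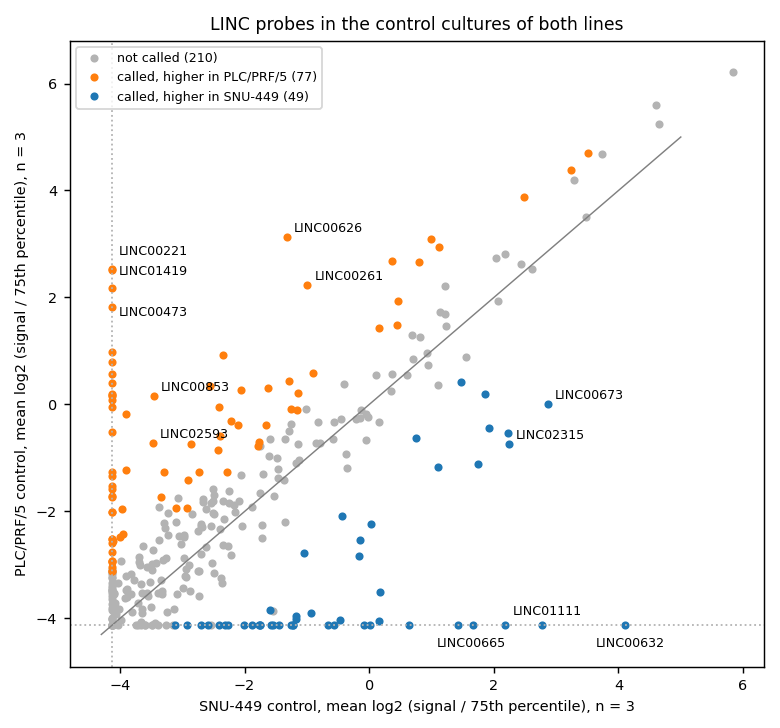
Mean level of 336 LINC probes in the SNU-449 control cultures (x axis) and the PLC/PRF/5 control cultures (y axis), 3 arrays each, as log2 of the processed signal over the 75th percentile of the array. Orange points (77) were called higher in PLC/PRF/5, blue points (49) in SNU-449 and grey points (210) were not called. Dotted lines are the floor at -4.13, on which LINC00632 and LINC01111 lie in PLC/PRF/5 and LINC00221 and LINC01419 in SNU-449.

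The nearest protein-coding genes were read in the same comparison. A neighbour was tested for 198 of the 269 genes. Of 67 called LINC genes with a tested neighbour, the neighbour was called for 23, with the same direction in 17 and the opposite in 6. The neighbour was called for 34.3% of called LINC genes and for 45.0% of the others. Each LINC gene was read here at a single probe. Genes called only at another probe, such as LINC00665 and LINC00941, therefore count among the others. FOXA2 beside LINC00261 was higher in PLC/PRF/5 by 1.00, just short of the 2-fold limit, and SAMD11 beside LINC02593 differed by 0.33.

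LINC RNAs described in liver or endoderm went in both directions. Of 7 listed, all on the array, 5 were tested between the controls: LINC00261 and LINC01018 (1.03 ± 0.19) were higher in PLC/PRF/5, LINC00844 (-1.44 ± 0.10) was higher in SNU-449, and LINC01554 (-0.06 ± 0.25) and LINC01485 (0.87 ± 0.22) were not called. With treatment, only LINC00261 of the 4 tested in SNU-449 was called. LINC01018, LINC01554 and LINC01485 lie outside the array positions used for the 336 probes. Their median difference was 0.87 between the lines, against 0.13 over all probes.

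LINC RNAs described in TGFβ, epithelial-to-mesenchymal or invasion settings were mostly not called. Of 11 listed, 10 are on the array and 7 were tested in SNU-449. At the probe of highest mean level for each gene, 0 of 7 were called with TGFβ1, with a median of -0.30, and 1, LINC00472 (1.25 ± 0.27), was called higher when galunisertib was added, with a median of 0.33. LINC-PINT, also listed, was called in both contrasts at another of its probes, as given above. The LINC00472 probe lies outside the positions used, and its 3 member probes were not called. Of 6 tested in PLC/PRF/5, 0 were called in any treatment contrast. Between the controls LINC-PINT and LINC01186 (1.18 ± 0.10) were higher in PLC/PRF/5 and LINC00511 (-2.26 ± 0.10) in SNU-449. LINC00941 showed how far probes of 1 gene can disagree: its 4 probes ranged from -4.04 to 0.16 between the lines, with 2 called, whereas with TGFβ1 in SNU-449 they ranged from 0.42 to 0.71 and none was called.

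Long noncoding RNAs without a LINC symbol were listed for comparison. Of 24, 20 were tested in SNU-449, where MIR503HG was lower with TGFβ1 (-1.20 ± 0.24) and MIR22HG was lower when galunisertib was added (-1.36 ± 0.26). Of 22 tested in PLC/PRF/5, SNHG15 was higher when galunisertib was added (1.43 ± 0.11). Between the controls 9 of 22 were higher in PLC/PRF/5, among them HULC (3.21 ± 0.15), an RNA known from liver cancer, and 2 were higher in SNU-449, MIR503HG and CYTOR.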

How the data were processed

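Total RNA of 24 cultures was hybridised to one-colour arrays and read with Agilent Feature Extraction 10.7.3.1. The deposited scanner files give a processed intensity per spot, with background subtracted and no scaling across arrays. A second deposited file holds log2 values that the authors made in GeneSpring, with a median of 0 for every probe (array medians -0.06 to 0.06). It was used as an alternative, since after centring each probe it correlated at 0.999 (slope 1.00) with the values used here over 19404 probes.

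Control spots and outlier flags (111 to 216 per array) were left out, and 0 spots were saturated. Spots of a probe were averaged, divided by the 75th percentile of the array, floored and log2-transformed. The floor, 5.70% of that percentile, was set from the weakest signal called well above background on each array, and values at the floor have no order. Where a group had 0 arrays above background, a bound ("at least") is given against the higher of that signal and the probe's own. The number of arrays limits the precision.

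Probes were tested with limma 3.58.1 in R 4.3.3 if above background on all 3 arrays of a group in the fit, over 12 arrays within a line and 24 between lines. The study's methods use a univariate t-test with random variance, for which limma stands here at the same limits. Alternatives covered scaling, floor, filter, background correction, test, the replicate block and left-out arrays. The normexp alternative used median spot signals, since the files hold no mean signal. An offset of 50 intensity units was added in it, which makes log2 differences of dim probes smaller. Replicates are independent cultures, and their number is also the slide. Deviations from the group means correlated above 0.1 in all 3 same-numbered pairs for 3 contrasts: TGFβ1 in SNU-449 (0.14 to 0.23), TGFβ1 in PLC/PRF/5 (0.16 to 0.29), and galunisertib added to TGFβ1 in SNU-449 (0.11 to 0.26). Symbols (31104 probes) and neighbours came from RefSeq's GRCh38.p14 table. RNAs named are those called in a treatment contrast or in a difference between lines (the 6 largest where over 10 in 1 direction), the 8 largest line differences and 6 largest bounds in each direction, listed genes, genes with several probes and probes at the edge of the detection rule. The members and lists were chosen with earlier results of these data known.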

Additional observations from a re-analysis of the deposited data

Results flagged for a closer look

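For 10 results the treatment effect differed between the lines by the interaction in limma, given as the SNU-449 effect minus the PLC/PRF/5 effect in log2. For galunisertib these were LINC00261 (1.43, adjusted p = 0.00029), LINC00853 (1.35, adjusted p = 0.008), LINC02532 (1.11, adjusted p = 0.0113) and LINC00673 (-1.13, adjusted p = 0.000315). For TGFβ1 they were LINC02532 (-2.07, adjusted p = 1.53e-05), LINC00842 (-1.63, adjusted p = 4.83e-05), LINC-PINT (-1.60, adjusted p = 0.000118), LINC00261 (-1.24, adjusted p = 0.000543), LINC02035 (-1.14, adjusted p = 0.00205) and LINC00999 (-1.13, adjusted p = 0.0198). The call held under each alternative run for LINC00673 with galunisertib and for LINC02532 with TGFβ1, and for each of the other 8 it was lost under at least 1. It held least often for LINC00999, under 4 of 12 alternatives, and the call of its fall in SNU-449 held under 3 of 12. In PLC/PRF/5, LINC00842 was above background on 1 control array and met the detection rule in this contrast with TGFβ1 only, so it was likely to differ. Groups of 3 arrays are too small for the test of outlying samples.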

How the results depend on the processing

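Counts of LINC probes called are given in the order galunisertib, TGFβ1 and galunisertib added to TGFβ1 for SNU-449 (2, 15 and 24 as reported), the same for PLC/PRF/5 (2, 3 and 6), the control lines (126), and the line differences for galunisertib (4) and TGFβ1 (13). After normexp background correction they were 0, 2, 9, 0, 3, 3, 79, 2 and 4. Requiring every array of the fit above background gave 2, 9, 15, 1, 2, 4, 47, 4 and 5. Array median scaling gave 2, 11, 19, 1, 5, 7, 117, 2 and 11. Taking LINC probes at all array positions gave 5, 21, 33, 2, 8, 13, 171, 7 and 18. The authors' table gave 4, 12, 26, 2, 4, 6, 136, 6 and 6. A plain two-sample t-test, without the shared spread of the study's random variance test, gave 0, 5, 14, 2, 2, 6 and 103 for the first 7. For galunisertib in PLC/PRF/5 the count was 1 with no filter on dim probes, 1 with the percentile over always-detected probes, and 1 without PLC/PRF/5 control replicate 1, a choice made after seeing the data. Leaving out each replicate in turn (where the 6 with TGFβ1 in SNU-449, without replicate 3, were 4 higher and 2 lower) gave 1 to 4, 6 to 13, 15 to 23, 0 to 2, 2 to 4, 5 to 6, 116 to 122, 4 to 6 and 10 to 15. With the replicate block the counts were 2, 14, 24, 2, 3, 6, 132, 4 and 14, none moved by over 1.5 times, and the block ended 1 named call, that of a LINC01091 probe with TGFβ1 in SNU-449. In all, 95 of 129 alternative counts stayed within 1.5 times. Of 1157 alternative values of named RNAs, 952 kept their call and 205 lost it, and 0 changed direction. The calls that held under every alternative run were LINC01111 of 15 with TGFβ1 and LINC02551 and LINC00261 of 24 with galunisertib added in SNU-449, and LINC02593, LINC00473 and LINC00239 of 6 in PLC/PRF/5. Others were LINC00673 of 4 and LINC02532 of 13 line differences, and 27 of 28 between controls. Within a line, 0 of the 4 calls with galunisertib alone and 0 of the 3 with TGFβ1 in PLC/PRF/5 held under every alternative. The cause was not tested. Members near the floor carry only a bound in the dim group.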
